A study of Saccharomyces cerevisiae with 9 samples.

Results

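The mitochondrial ribosomal protein genes of the budding yeast Saccharomyces cerevisiae were examined in cultures that differed in the telomere protein Cdc13 and in colony colour. A gene was a member if its symbol was MRPL, MRPS, RSM or MRP followed by a digit, MRP8 excepted, or was IMG1, IMG2, YML6, NAM9, PET123, RML2 or SWS2. The rule used names only and no measured value, and it found 64 of the 5205 genes in the deposited tables. Of these, 37 encode proteins of the large subunit and 27 proteins of the small subunit. By the same names, 9 further genes (MRP10, MRPL33, MRPL36, MRPL39, MRPL44, MRPS9, RSM18, RSM19 and YML6) were not analysed here.

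All 9 libraries came from the laboratory strain W303, held for 15 days in stationary phase in YPD, a rich glucose medium, with no dilution. WT-red carried wild-type CDC13 and formed red colonies. K504E-red and K504E-white both carried cdc13-K504E, a substitution in this telomere-binding protein, and formed red and white colonies respectively. Each group had 3 libraries that the labels call biological replicates. White wild-type colonies are not among the groups, so between K504E-white and WT-red the effects of colour and of the mutation cannot be told apart. The labels do not say whether the colonies of a group came from 1 clone.

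Mitochondrial ribosomes translate the few messages encoded by mitochondrial DNA, which in yeast specify core subunits of the respiratory complexes and the ATP synthase and a protein of the mitochondrial ribosome itself. All other proteins of these ribosomes are made from nuclear genes, translated in the cytosol and imported. Many have a relative in the bacterial ribosome, and others are found only in mitochondria. Yeast needs mitochondrial translation to respire but can live by fermentation without it. The RNA-binding protein Puf3 binds the sequence TGTANATA (written as DNA, where N is any base) behind the coding region of many nuclear messages for mitochondrial proteins, mitochondrial ribosomal proteins among them, and takes part in their decay and translation.

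That sequence was searched for in the 250 bases after the stop codon of each gene in S288C, the reference strain, on assembly R64, after the gene values had been seen. It was present on the sense strand of 63 of 64 members (98.4%), 4 of 67 cytosolic ribosomal protein genes (5.97%) and 816 of 5157 genes of the table (15.8%). On the opposite strand it was present in 18.8% of members and 14.9% of all genes. The exception was RSM22. Of the 63 members, 52 had 1 match, 10 had 2 and 1 had 3 or more, and the nearest match began at a median of 50 bases after the stop codon, with a range of 8 to 136. The 75 matches read TGTAAATA in 33 cases, TGTATATA in 23, TGTACATA in 18 and TGTAGATA in 1. A match describes the letters only, and binding was not measured. The windows of 8 members described further on are shown with the match in capitals, 5′ to 3′ on the strand of the gene, since the match is a feature that nearly all members share and that the rule did not use. They lie at chrV:59531-59560 (minus strand) for RML2, chrXII:1015467-1015496 (plus) for MRPL4, chrII:146900-146929 (plus) for MRPL16, chrXIV:694269-694298 (minus) for MRPS12, chrXIV:171334-171363 (minus) for MRPL17, chrXIII:636217-636246 (minus) for MRPS17, chrII:722314-722343 (plus) for MRPS5 and chrXIV:397921-397950 (minus) for MRP35, all on S288C R64.
RML2: gtccacaatcaTGTAAATAtaaatattgaa
MRPL4: accctctctccTGTAAATAtatatatatat
MRPL16: ccatgtatacaTGTATATAactattgaaaa
MRPS12: atacaacctttTGTAAATAgcaatgaccat
MRPL17: cgtcaatcacaTGTAAATAtcattaaatga
MRPS17: gcactacactcTGTAAATAtatacaactac
MRPS5: aatactaTGTACATAcacacgcaccattat
MRP35: ttcggtcttcaTGTATATAaataagtatga

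**Figure D1:**
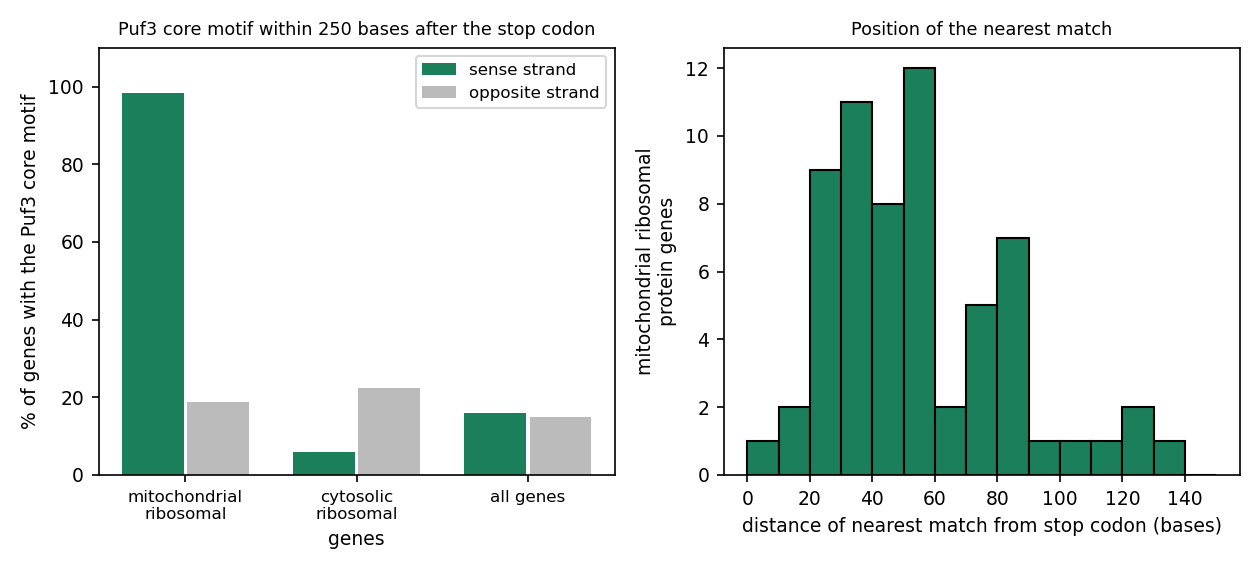
Left, the percentage of genes with TGTANATA within 250 bases after the stop codon in S288C, on the sense and the opposite strand, which is 98.4% of the members on the sense strand and 15.8% of all genes; right, the number of members by the distance of their nearest match from the stop codon, in bases, with a median of 50.

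Library totals ranged from 27388755 to 34634199 counts. Replicates differed by more than counting noise, with chi-square values of 13.5 to 31.6 for each degree of freedom. CDC13 itself had 25.2 ± 2.15 CPM, the count scaled to library size, (SD, n = 3) in WT-red, 27.7 ± 5.18 in red mutant colonies and 21.2 ± 0.507 in white ones, and gene counts cannot show its amino acid change. The members took 0.603% to 0.768% of the counts of a library. Each member had 1105 to 8020 counts in every library, so all 64 were tested, and their median coefficient of variation between replicates came to 6.08%, 4.69% and 5.76% in WT-red, K504E-red and K504E-white. MRP4 overlaps YHL005C by 2 bases on the opposite strand, and the use of strand in the counting is not given in the sources used here. None of the 64 had a near-identical copy among the 5157 S288C genes searched, and the rest of the genome was not searched.

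On the deposited FPKM scale, which divides by gene length, the members were of moderate abundance and close to one another. The mean level over the libraries ranged from 33.0 to 412 FPKM with a median of 138, against 55.3 for all genes and 2505 for the cytosolic ribosomal protein genes. Large subunit genes had a median level of 131 FPKM and small subunit genes 140 FPKM. The highest levels were those of MRPS12, the relative of bacterial S12 at the decoding centre, with 412 FPKM, MRPS16 (S16 family) with 273 and MRPL38 (L14 family, at the interface with the small subunit) with 241. The lowest were those of RSM22, a methyltransferase-like protein of the small subunit, with 33.0 FPKM, MRPL32 (L32 family) with 84.2 and MRP13, a mitochondria-specific small subunit protein, with 90.8.

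The summed level of the members stepped upwards from WT-red to K504E-red to K504E-white. It was 5988, 5799 and 6219 CPM in the WT-red libraries, 6728, 6998 and 6799 in red mutant libraries and 7075, 7304 and 7824 in white ones. No library of one group overlapped those of another, and the nearest were the highest of K504E-red and the lowest of K504E-white. The order WT-red, K504E-red, K504E-white held for the group means of 52 of the 64 members, and WT-red was the lowest group in 10 others, in which K504E-red was highest. In bulk samples of this kind a change in the RNA of each cell and a change in the mix of cells cannot be told apart.

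Red colonies of the mutant and the wild type share the colour, and their comparison asked what differed with the mutation. The labels do not give the clonal origin of the colonies, so the mutation cannot be told apart from differences between clones. The members shifted upwards by a small amount: 34 of 64 rose, 0 fell and 30 did not pass the test, by edgeR's quasi-likelihood test at an adjusted p under 0.05 over all 5172 genes tested. Of all genes tested, 47.5% were called, 25.8% higher and 21.7% lower. The median log2 fold change of the members was 0.18, with a range of -0.01 to 0.36, beside a median of 0.03 over all genes. The libraries of K504E-red lay wholly above those of WT-red in 40 members and wholly below in none, beside 29.7% and 24.9% of all genes. Those called rose by 0.16 to 0.36 on the log2 scale, and none reached 2-fold. The count depended on scaling and on single libraries: it was 21 when the scaling factors were computed without the cytosolic ribosomal protein genes and 14 without K504E-red replicate 2, with medians of 0.14 and 0.12. Over all genes, the 1333 called higher became 1088 and 949 in these settings, and the median of 0.03 became -0.0013 and -0.0038.

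The largest rise belonged to RML2 (YEL050C, W303 contig 100, 52124 to 53305, minus strand), the relative of L2, a core protein of the large subunit next to the centre where peptide bonds form. It had 159, 171 and 180 CPM in the WT-red libraries, 214, 211 and 227 in the K504E-red libraries and 210, 217 and 230 in the K504E-white libraries. Both mutant groups lay above every WT-red library and overlapped each other. The log2 fold change in K504E-red was 0.36 (SE 0.0580, edgeR adjusted p 7.75e-05), and in K504E-white it was 0.37 (SE 0.0579, edgeR adjusted p 5.18e-05).

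MRPL4 (YLR439W, contig 132, 32653 to 33612, plus strand), of the L29 family at the exit of the peptide tunnel, had 75.1, 82.5 and 89.9 CPM in the WT-red libraries, 114, 107 and 93.2 in the K504E-red libraries and 102, 110 and 110 in the K504E-white libraries. Its mutant libraries were again all above the wild type, by a log2 fold change of 0.35 (SE 0.0791, edgeR adjusted p 0.0017) in K504E-red. MRPL16 (YBL038W, contig 86, 109697 to 110395, plus strand), of the L16 family, had 71.9, 61.4 and 73.5 CPM in the WT-red libraries, 85.0, 90.0 and 83.4 in the K504E-red libraries and 73.3, 78.5 and 82.8 in the K504E-white libraries. It differed from RML2 and MRPL4 in that K504E-white lay between the other groups and touched the range of WT-red. Its log2 fold change was 0.32 (SE 0.0747, edgeR adjusted p 0.0019) in K504E-red and 0.18 (SE 0.0746, edgeR adjusted p 0.0534) in K504E-white.

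Among small subunit genes, MRPS12 (YNR036C, contig 188, 31308 to 31769, plus strand), the most abundant member, had 165, 158 and 163 CPM in the WT-red libraries, 196, 196 and 204 in the K504E-red libraries and 205, 216 and 222 in the K504E-white libraries. Its groups did not overlap, and the log2 fold change in K504E-red was 0.29 (SE 0.0512, edgeR adjusted p 0.000166). MRP51, related to bacterial S1, rose by 0.30 (SE 0.0620), from 157, 140 and 162 CPM to 184, 189 and 194. Of the large subunit, MRPL38 rose by 0.31 (SE 0.0632), the mitochondria-specific MRPL28 by 0.31 (SE 0.0790), and IMG1, of the L19 family and named for its need in keeping mitochondrial DNA intact, by 0.29 (SE 0.0610). These 8 genes were called in K504E-red against WT-red in all 19 settings tried. By subunit, 22 of 37 large subunit genes and 12 of 27 small subunit genes rose, with medians of 0.18 and 0.16.

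**Figure D2:**
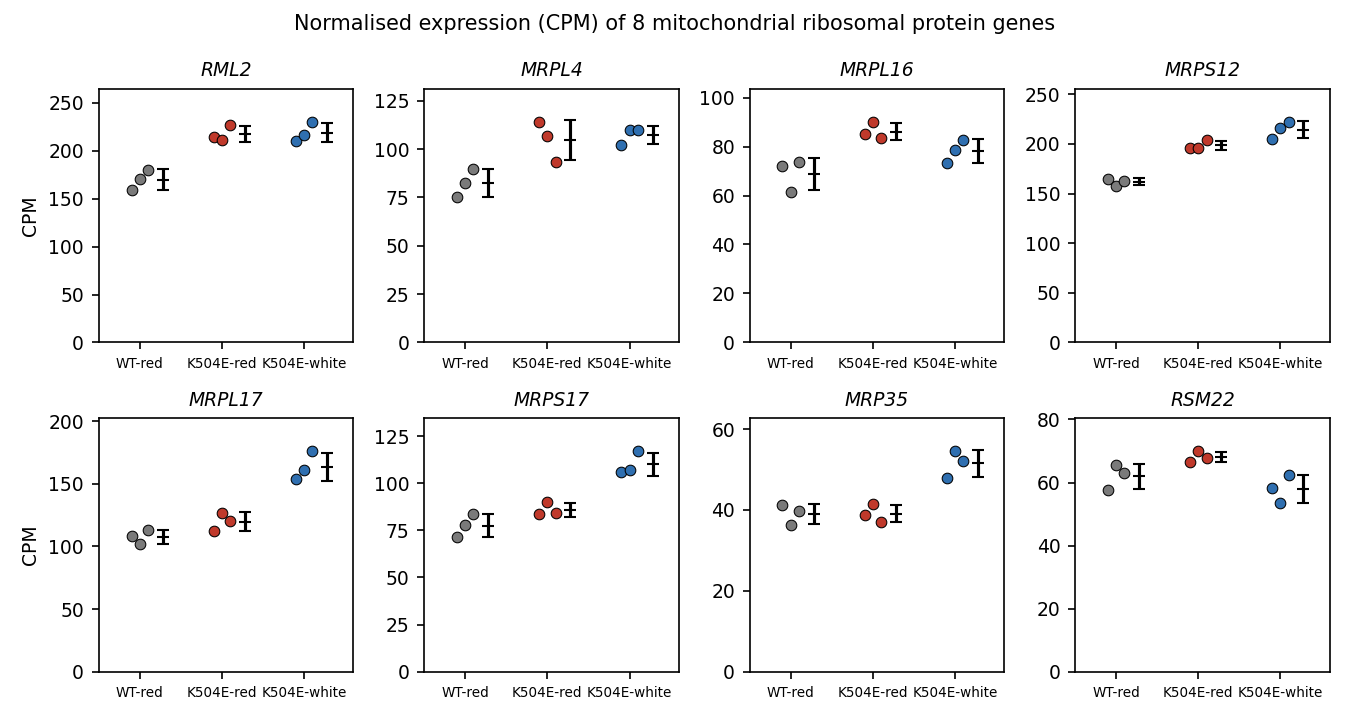
CPM of 8 members in each library (points) with group means and SD (n = 3). RML2, MRPL4, MRPL16 and MRPS12 are higher in K504E-red than in WT-red; MRPL17, MRPS17 and MRP35 stand highest in K504E-white, and RSM22 is lowest there.

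White mutant colonies differ from WT-red by the mutation together with the colour. Nearly all members were higher: 55 of 64 rose, 0 fell and 9 did not pass edgeR's test, where 46.8% of all genes were called, 23.3% higher and 23.5% lower. The median log2 fold change was 0.30, with a range of -0.10 to 0.61, beside -0.01 over all genes. The libraries of K504E-white lay wholly above those of WT-red in 54 members and wholly below in none, beside 27.8% and 28.4% of all genes. The rise took in 33 of 37 large subunit genes (median 0.29) and 22 of 27 small subunit genes (median 0.31), and 35 of 39 members with a bacterial counterpart and 20 of 25 found only in mitochondria.

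MRPL17 (YNL252C, contig 72, 68956 to 69801, minus strand), a mitochondria-specific protein of the large subunit, rose most. It had 108, 102 and 113 CPM in the WT-red libraries, 112, 127 and 120 in the K504E-red libraries and 154, 161 and 176 in the K504E-white libraries. The white libraries stood clear of all red ones, while the red groups overlapped. The log2 fold change in K504E-white was 0.61 (SE 0.0658, edgeR adjusted p 6.92e-07), a 1.52-fold higher level. MRPL28 followed, with 46.3, 41.1 and 50.9 CPM in WT-red and 68.3, 64.8 and 69.1 in K504E-white, a log2 fold change of 0.55 (SE 0.0786, edgeR adjusted p 1.77e-05). K504E-red lay between, at 54.4, 59.0 and 57.6 CPM, with no overlap on either side.

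In the small subunit, MRPS17 (YMR188C, contig 192, 2124 to 2837, minus strand), of the S17 family, had 71.4, 77.7 and 83.7 CPM in the WT-red libraries, 83.5, 89.9 and 84.1 in the K504E-red libraries and 106, 107 and 117 in the K504E-white libraries, a log2 fold change of 0.50 (SE 0.0683, edgeR adjusted p 9.55e-06) in white colonies against WT-red. MRPS5 (YBR251W, contig 163, 19369 to 20292, plus strand), of the S5 family near the entry of the messenger RNA, had 67.5, 75.1 and 80.3 CPM in the WT-red libraries, 84.6, 80.5 and 77.8 in the K504E-red libraries and 105, 101 and 104 in the K504E-white libraries, and rose by 0.47 (SE 0.0680). Both genes had white libraries above every red library and red groups that overlapped. MRPL24 (L28 family) rose by 0.46 (SE 0.0568), MRPL35 (mitochondria-specific, large subunit) by 0.45 (SE 0.0696), MRPS35 (mitochondria-specific, small subunit) by 0.44 (SE 0.0713) and MRPL6 (L6 family) by 0.43 (SE 0.0704). These 8 genes were called in K504E-white against WT-red in all 19 settings tried.

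**Figure D3:**
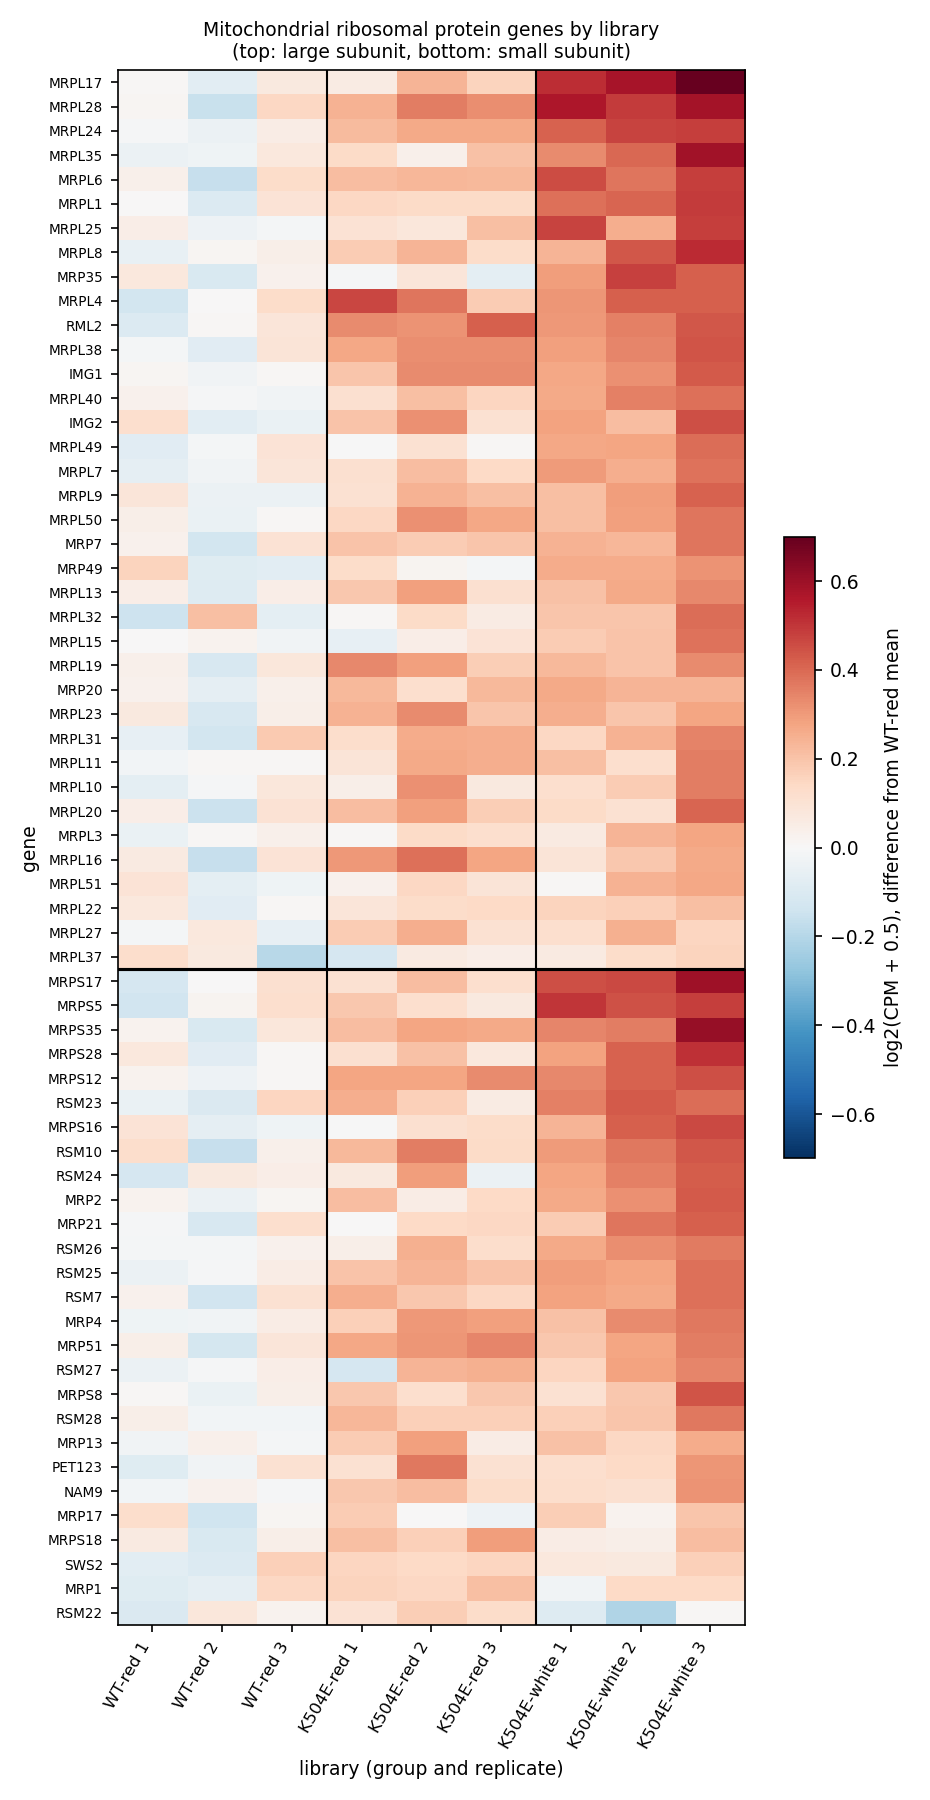
Log2 CPM of each of the 64 members in each of the 9 libraries relative to its mean in WT-red, with large and small subunit genes in separate blocks. Most rows darken from K504E-red to K504E-white; 58 to 63 members lay above their WT-red mean in a K504E-red library and 62 to 64 in a K504E-white library.

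K504E-white and K504E-red share the mutation, and their comparison asked what differed with colour. Without the clonal origin of these colonies, colour cannot be told apart from differences between clones. Here 24 of 64 members rose in white colonies, 1 fell and 39 did not pass edgeR's test, where 54.5% of all genes were called, 27.2% higher and 27.3% lower. The median log2 fold change was 0.11, with a range of -0.23 to 0.45, beside -0.0043 over all genes. White libraries lay wholly above red ones in 30 members and wholly below in 3, beside 30.7% and 31.1% of all genes. Without K504E-white replicate 3, 13 members rose and 2 fell, and the median was 0.07.

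MRPL17 again differed most, by 0.45 (SE 0.0657, edgeR adjusted p 1.46e-05). MRP35 (YNL122C, contig 88, 44800 to 45147, plus strand), of the L35 family, had 41.1, 36.2 and 39.8 CPM in the WT-red libraries, 38.8, 41.4 and 37.1 in the K504E-red libraries and 47.9, 54.5 and 52.2 in the K504E-white libraries. The red groups overlapped and all white libraries lay above them. Its log2 fold change between the colours was 0.40 (SE 0.0832, edgeR adjusted p 0.000577), and in K504E-red against WT-red it was 0.0028 (SE 0.0838). MRPS17 rose by 0.36 (SE 0.0682), MRPS5 by 0.35 (SE 0.0679) and MRPL35 by 0.32 (SE 0.0696). MRPS16 rose by 0.30 (SE 0.0704), MRPL1, of the L1 family at the exit for transfer RNA, by 0.30 (SE 0.0594) and MRPL49 (L21 family) by 0.28 (SE 0.0691). The table's gene model for MRPL49 spans 675 bases and that of S288C 486, so the span counted for it differs from the reference. All 8 genes were called in K504E-white against K504E-red in all 19 settings tried.

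The 1 member that fell was RSM22 (YKL155C, contig 27, 156822 to 158708, minus strand), also the least abundant and the 1 without TGTANATA in its window. It had 57.7, 65.4 and 63.0 CPM in the WT-red libraries, 66.6, 69.9 and 67.8 in the K504E-red libraries and 58.2, 53.5 and 62.3 in the K504E-white libraries. White libraries lay below those of K504E-red and overlapped WT-red. Its log2 fold change in K504E-white against K504E-red was -0.23 (SE 0.0728, edgeR adjusted p 0.0127), and the adjusted p by edgeR was 0.0784 without K504E-white replicate 2. Against WT-red it was 0.13 (SE 0.0728) in red and -0.10 (SE 0.0728) in white mutant colonies, and neither passed edgeR's test. No member was called in opposite directions in the mutant groups against WT-red.

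**Figure D4:**
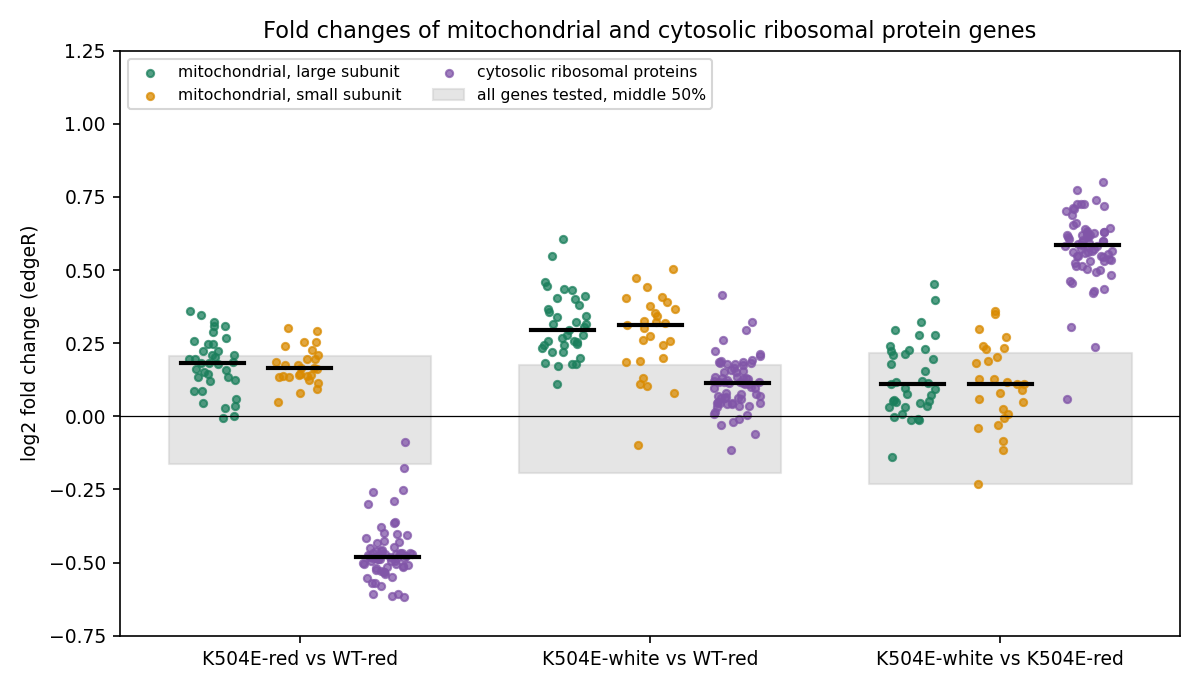
Log2 fold changes of each mitochondrial (64) and cytosolic (68) ribosomal protein gene in the 3 comparisons, 1 point per gene, with the median marked. The members have medians of 0.18, 0.30 and 0.11 and the cytosolic genes -0.48, 0.11 and 0.59, for K504E-red and K504E-white against WT-red and for K504E-white against K504E-red.

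The cytosolic ribosomal protein genes, whose products build the ribosomes that translate nuclear messages, moved against the members in K504E-red relative to WT-red. In both comparisons of K504E-white, the cytosolic genes and the members each had a median above 0. In K504E-red against WT-red, 67 of 68 fell and 0 rose by edgeR's test, with a median log2 fold change of -0.48 and a range of -0.62 to -0.09, where 34 members rose and 0 fell and 21.7% of all genes were called lower. In K504E-white against WT-red, 20 of 68 rose (29.4%) and 0 fell with a median of 0.11, beside 23.3% of all genes called higher. In K504E-white against K504E-red 67 rose with a median of 0.59, beside 27.2% of all genes. The count of 20 was 5 without K504E-white replicate 1. RPS22A and RPL18B fell most in K504E-red, and the values of RPL10 and RPL9B were nearest to 0. Many cytosolic ribosomal proteins are encoded by near-identical gene pairs, between which reads may have been split, so single genes are uncertain.

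Set against each other within a library, the members' sum was 6.61%, 6.66% and 7.71% of the cytosolic sum in WT-red, 11.1%, 11.0% and 10.4% in red mutant colonies and 7.69%, 8.07% and 8.06% in white ones. K504E-red stood clear above both other groups, and K504E-white touched the highest WT-red library. The members' sum was 6002 ± 210 CPM in WT-red and 6842 ± 140 in K504E-red, and the cytosolic sum 86144 ± 5037 and 63205 ± 2238 (SD, n = 3).

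**Figure D5:**
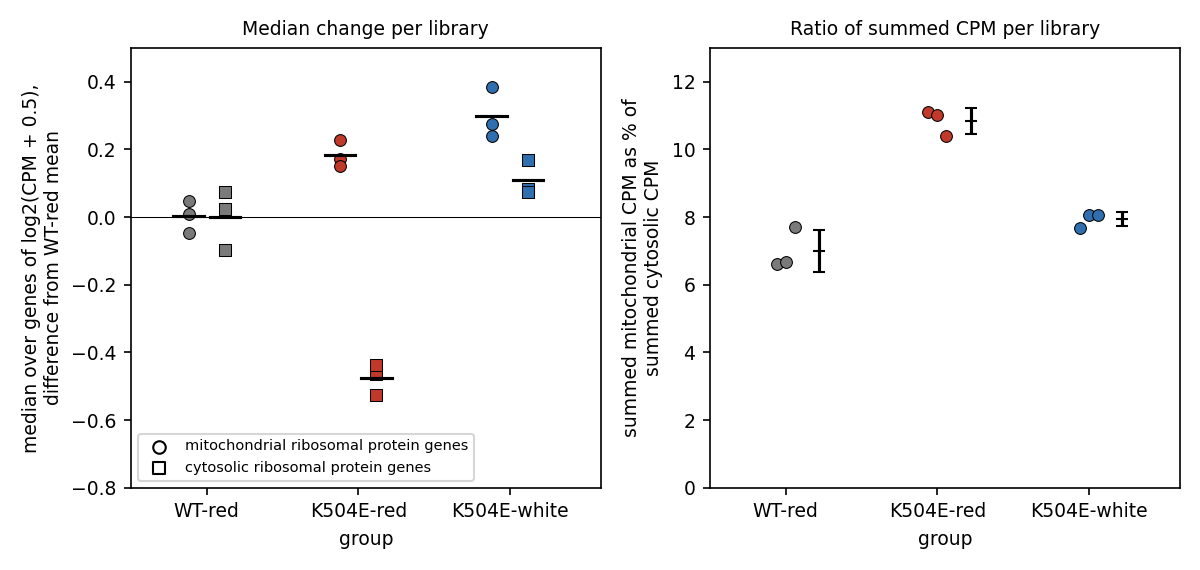
Left, the median over the 64 mitochondrial (circles) and 68 cytosolic (squares) ribosomal protein genes of the log2 level in each library relative to the WT-red mean, with a line at each group's mean; the members run from 0.151 to 0.227 in K504E-red and 0.238 to 0.384 in K504E-white, and the cytosolic genes from -0.525 to -0.436 in K504E-red. Right, the summed CPM of the members as a percentage of the cytosolic sum in each library, with mean and SD (n = 3) beside the points, highest in K504E-red at 10.4% to 11.1%.

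Other nuclear genes of mitochondrial translation were read from lists of subunits outside the naming rule, translation factors, aminoacyl-tRNA synthetases, translational activators and assembly factors. In K504E-red against WT-red, 3 of 6 further subunits, 6 of 9 translation factors, 10 of 13 synthetases, 7 of 15 activators and 3 of 7 assembly factors rose, and 0 fell, where 25.8% of all genes were called higher and 21.7% lower. In K504E-white against WT-red the counts were 5 and 0, 5 and 1, 6 and 1, 3 and 2, and 1 and 0, higher and lower in the same order, beside 23.3% and 23.5% of all genes. The counts of activators and assembly factors that rose there are a smaller share of their lists than that of all genes. In K504E-white against K504E-red they were 2 and 1, 2 and 2, 2 and 6, 0 and 4, and 1 and 2, beside 27.2% and 27.3% of all genes. Among the synthetases, activators and assembly factors, more genes were called lower than higher in white colonies against red mutant ones, unlike among the members. This contrast between lists was not tested. The share called lower was 46.2% in the synthetases. In the activators (26.7%) and assembly factors (28.6%) it was near the 27.3% of all genes. Leaving out 1 library lowered the higher counts in K504E-red. They came to 0 further subunits and 3 translation factors without K504E-red replicate 2, 8 synthetases and 1 assembly factor without WT-red replicate 1 or K504E-red replicate 3, and 3 activators without WT-red replicate 1 or K504E-red replicate 2. In white colonies relative to WT-red, 3 further subunits rose without K504E-white replicate 2, 3 translation factors without K504E-white replicate 3 and 1 activator fell without WT-red replicate 2 or 3, while leaving out K504E-white replicate 3 left 4 synthetases higher. Between the mutant groups, 0 further subunits rose without K504E-red replicate 3 or K504E-white replicate 3. There 0 translation factors and 0 assembly factors fell without K504E-white replicate 2, which gave 6 activators lower, and 2 activators fell without K504E-red replicate 2 or K504E-white replicate 1.

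The further subunits MNP1 and MHR1 rose by 0.37 (SE 0.0579) and 0.32 (SE 0.0637) in white colonies relative to WT-red, while EHD3, which is also an enzyme of valine breakdown, fell by 0.28 (SE 0.0660) in K504E-white against K504E-red. TUF1, the elongation factor that brings aminoacyl-tRNA to the mitochondrial ribosome, had 530 ± 21.2 CPM (SD, n = 3) in WT-red, 615 ± 27.6 in red mutant colonies and 786 ± 43.5 in white ones, a log2 fold change of 0.57 (SE 0.0557, edgeR adjusted p 1.86e-07) in white colonies against WT-red. It moved in the same order of groups as most members. MEF1, the elongation factor for translocation, and MRF1, the release factor, rose in K504E-red by 0.35 (SE 0.0629) and 0.35 (SE 0.0655), whereas MEF2, a recycling factor, fell in K504E-white against WT-red by 0.31 (SE 0.0758).

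Synthetases took separate courses. DIA4, for serine, rose by 0.37 (SE 0.10) in red and 0.72 (SE 0.0995) in white mutant colonies relative to WT-red. NAM2, for leucine, had 126 ± 4.91 CPM (SD, n = 3) in WT-red, 165 ± 1.08 in red mutant colonies and 127 ± 10.7 in white ones, so that it rose by 0.40 (SE 0.0621) in K504E-red and fell by 0.39 (SE 0.0621) from there to K504E-white. MSK1, for lysine, fell by 0.34 (SE 0.0626) between the mutant groups, and MSR1, for arginine, by 0.60 (SE 0.0916). Of the activators that serve single mitochondrial messages, PET494, for COX3, rose in both mutant groups by 0.36 (SE 0.0613) and 0.46 (SE 0.0611), while PET54, also for COX3, and ATP22, for ATP6, fell by 0.37 (SE 0.0699) and 0.35 (SE 0.0648) in K504E-white against K504E-red. MAM33, which takes part in assembly, rose by 0.30 (SE 0.0700) and 0.62 (SE 0.0698) in the mutant groups.

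Of 8 genes that copy, transcribe or process mitochondrial DNA and RNA, 0 were called in K504E-red against WT-red by edgeR and 2 rose in K504E-white, 1 of them ABF2, which packs mitochondrial DNA, by 0.26 (SE 0.0570). The 2 became 1 when either WT-red replicate 1 or replicate 3 of K504E-white was left out, and 3 without K504E-white replicate 1, and 1 rose in K504E-red without WT-red replicate 3. Of the 4 genes of the HAP complex, a transcription activator of respiratory genes, 3 rose in K504E-red relative to WT-red. In K504E-white 2 rose and 1 fell. The shares of all genes called in these comparisons are those just given. The call of HAP4 in K504E-red was lost in 16 of the 18 other settings. Without K504E-red replicate 3, 1 of the 4 rose in K504E-red. HAP5 lost its call there and without WT-red replicate 2, with adjusted p by edgeR of up to 0.0816. The gene that fell in K504E-white, HAP3, lost its call without WT-red replicate 1 or 2 or K504E-white replicate 2. HAP2 rose by 0.43 (SE 0.0752) and 0.55 (SE 0.0749), and HAP4, its activating subunit, rose by 0.37 (SE 0.0627) in K504E-white. PUF3 passed edgeR's test in no comparison, with log2 fold changes of 0.08 (SE 0.112) in K504E-red, 0.24 (SE 0.111) in K504E-white and 0.16 (SE 0.112) between them.

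Since 63 of 64 members hold TGTANATA, the genes outside the list that hold it were read beside them. Of 751 such genes, 242 rose and 134 fell in K504E-red against WT-red (32.2% higher), 200 rose and 154 fell in K504E-white against WT-red (26.6%), and 182 rose and 207 fell in K504E-white against K504E-red (24.2%). Of 4317 genes without it, 24.2%, 21.8% and 27.8% were higher. Over all genes tested, the shares called higher were 25.8%, 23.3% and 27.2%, and those called lower 21.7%, 23.5% and 27.3%. Of the 50 other genes of mitochondrial translation, the 42 with the sequence gave 26 higher and 0 lower, 20 and 1, and 7 and 10 in the 3 comparisons, and the 8 without it gave 3 and 0, 0 and 3, and 0 and 5. All 13 synthetases and all 6 further subunits hold it. The 42 genes are among the 751 above and the 8 among the 4317, so these readings are not separate.

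In the promoter windows, from 250 bases before to 50 after the annotated gene start in S288C R64, motifs were searched on both strands. AATTTT, part of the RRPE element found before ribosome biogenesis genes, was in 40.6% of member windows and 53.0% of all windows, and the longer RRPE form that contains it in 0% and 2.64%. GATGAG (PAC) was in 12.5% and 20.0%, CCAAT (HAP complex) in 42.2% and 44.1%, CCCCT (stress element) in 14.1% and 21.5%, and ACCCNNACA (Rap1) in 0% and 2.77%. Of the 26 members with AATTTT, 14 rose in red (53.8%) and 22 in white mutant colonies (84.6%) relative to WT-red. Of the 38 without it, 20 (52.6%) and 33 (86.8%) rose, so the shares with and without it were close. The shares of all genes called higher were 25.8% and 23.3%.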

How the data were processed

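RNA from 9 yeast cultures was sequenced after poly(A) enrichment, per the labels' protocols. The authors deposited whole-number gene counts without normalization on contigs of a W303 assembly, per the file headers, and FPKM values per library with their group means, which are not tested here. The aligner, the counting program and the use of strand are not given in the sources used here. Groups came from the sample titles. The table columns are headed W, K and KW with a replicate number and were matched to the titles through the group names in the authors' table of group means, since no explicit map is given in the sources used here. Genes were filtered with filterByExpr (5172 of 5205 kept), scaled with TMM (factors 0.978 to 1.04) and tested with edgeR 4.0.16 (R 4.3.3) by the quasi-likelihood test, two-sided, on all 9 libraries with group as the only term and Benjamini-Hochberg adjustment over all genes tested. A gene was called, and said to rise or fall, at an adjusted p under 0.05. SE is the standard error of a log2 fold change. The edgeR script was tested on simulated data, where it recovered nearly all changed genes but the share of false calls was somewhat above the nominal level. The sizes of change in those data are not given here. No conclusion is drawn from them about recovery or false calls at the sizes reported. DESeq2 1.42.0 and limma 3.58.1 (on log2 of FPKM + 1) were alternatives, among 18 other settings in all.

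Symbols for 5162 of 5205 genes came from RefSeq's S288C R64. Sequences are RefSeq's S288C R64, not W303; contig coordinates are those of the deposited table. BLAST 2.17.0 searched for copies of at least 95% identity over at least 100 bases, among the S288C genes that are also in the deposited table. The members, lists and tests were chosen with earlier results of these data known. Members were named by a rule: up to 8 with the largest log2 fold change in each direction per comparison among those called whose libraries do not overlap, and the 3 highest and 3 lowest in FPKM; of each other list, examples came from the up to 3 called per comparison and direction by size, and those called in every setting for the value printed were shown. The search for TGTANATA was added after gene values had been seen.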

Additional observations from a re-analysis of the deposited data

Results flagged for a closer look

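Between K504E-white and K504E-red, edgeR's test over all genes called 25 of the 64 members, 24 higher and 1 lower, so their differences from WT-red were not equal in white and red mutant colonies. The 9 given here are those named for the size of this same contrast, and their values describe that choice. Relative to K504E-red, the level in K504E-white was higher on the log2 scale by 0.45 for MRPL17, 0.40 for MRP35, 0.36 for MRPS17, 0.35 for MRPS5, 0.32 for MRPL35, 0.30 for MRPS16, 0.30 for MRPL1 and 0.28 for MRPL49. For RSM22 the difference was -0.23, and its call was lost without K504E-white replicate 2 (adjusted p 0.0784 by edgeR). Of all genes, 27.2% were called higher and 27.3% lower.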

How the results depend on the processing

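No called result of a named member changed direction in any of the 18 other settings, and the members' medians stayed above 0. Changes of direction were not looked for in other single genes. In K504E-red against WT-red, 34 members were called; 21 were called with scaling factors computed without cytosolic ribosomal protein genes, with genes of at least 1 count and with genes of at least 10 counts in every library, and 22 in a fit of only the groups compared. Leaving out single libraries gave 14 (without K504E-red replicate 2) to 37, and 19 without WT-red replicate 1 or 2, K504E-red replicate 3, or K504E-white replicate 1 or 2, with medians of 0.12 to 0.19. In K504E-white against WT-red it gave 38 (without K504E-white replicate 3) to 56 members, with medians of 0.23 to 0.33, and in K504E-white against K504E-red 15 (without K504E-white replicate 3) to 26, with medians of 0.07 to 0.15. The 20 cytosolic genes called in K504E-white against WT-red were 12 under both other count filters and 5 (without K504E-white replicate 1) to 25 with a library left out, among them 6 without K504E-white replicate 3, 9 without WT-red replicate 3, 10 without K504E-red replicate 2, 11 without K504E-white replicate 2 and 13 without K504E-red replicate 3. The other cytosolic counts stayed at 66 to 67. The counts over all genes moved too, as given above for K504E-red, and the cause of these changes was not tested. In all 19 settings, 12, 38 and 12 members were called in the 3 comparisons in the order above, and 57, 63 and 44 had a log2 fold change above 0. Named members gave 1 value for each gene, comparison and setting. Of 594 such values over 9 settings that kept all libraries, 12 lost and 6 gained a call. Of 594 over the 9 fits with a library left out, 29 lost and 8 gained one. Scaling moved the median of all genes by less than 0.1 on the log2 scale.

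With the replicate number as a block, 34, 56 and 25 members were called. Deviations of same-numbered libraries correlated at -0.11 to 0.027, 0 of 9 over 0.1, and 0 libraries correlated best with their own number, so the numbers were not taken as a pairing. The median SE of a member's log2 fold change was 0.069, which sets the precision that 3 libraries a group give.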
